A study of Mus musculus with 9 samples.

Results

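The markers of hair follicle stem cells were followed in the back skin of control, IMQ and LYS mice. They comprised 10 of the 29205 genes counted, taken by gene name from lists of bulge, germ and isthmus markers: Lhx2, Sox9, Tcf7l1, Nfatc1, Foxc1, Tbx1, Lgr5, Lgr6, Lrig1 and Cd34. RNA from 3 libraries per group, 9 in all, was sequenced to compare untreated skin, psoriasis-like skin and psoriasis-like skin under a herbal decoction. All mice were male BALB/c animals with no allele named beyond the strain, aged 6 to 8 weeks, whose backs were shaved and treated with depilatory cream. The control group received no imiquimod. The IMQ group received 62.5 mg of 5% imiquimod (IMQ) cream on the back each day for 5 days, a Toll-like receptor agonist that gives psoriasis-like lesions. The LYS group received the same cream and Longkui Yinxiao soup (LYS), which the study's methods describe as given by gavage. The labels name no LYS dose, and the study's methods say that the sequenced LYS mice were those of its high-dose group. Skin was taken on day 13 in every group. Nothing in the labels says whether the 3 libraries of a group came from separate mice, so p-values measure the spread between these libraries.

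Hair follicles cycle through growth, regression and rest, and each new cycle starts from stem cells kept in the bulge and in the hair germ below it. Wnt signals, amplified by R-spondins, drive the germ into growth, whereas transcription factors such as Lhx2, Sox9, Tcf7l1, Nfatc1, Foxc1 and Tbx1 keep bulge cells undifferentiated or quiescent. The isthmus above the bulge holds other stem cells, marked by Lgr6 and Lrig1, which maintain the upper follicle and sebaceous gland and can contribute to the epidermis after injury.

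The libraries held 14658645 to 19609878 counts, and a count was worth 0.0463 to 0.0745 CPM (counts scaled to library size, with TMM factors). Within each group, any 2 libraries were farther apart than sampling of reads alone allows (chi-square over its degrees of freedom of 18.4 to 109.5). Any 2 pairs of libraries in a group share a library. For the 2 highest values it was LYS 1 in the LYS group (57.6 and 109.5), IMQ 1 in the IMQ group (43.3 and 62.1) and control 3 in the control group (28.8 and 54.3). The summed CPM of 10 fibroblast genes was 42.3% of the control mean in IMQ 1 but 19.0% and 13.7% in IMQ 2 and IMQ 3. LYS 1 stood apart in several marker lists: the summed CPM of 5 other isthmus and infundibulum genes was 205% of the control mean in LYS 1 but 50.5% and 41.2% in LYS 2 and LYS 3. The summed CPM of 12 endothelial genes was 68.4% of the control mean in LYS 1 but 128% and 141% in LYS 2 and LYS 3. For the comparison of LYS with IMQ, values without LYS 1 are therefore given beside those with it.

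All 10 markers were detected in every library and passed edgeR's expression filter in all 3 comparisons. Counts ranged from 4 for Lhx2 in IMQ 3 to 8598 for Cd34 in control 2. Per length (FPKM, counts scaled to exon length and library size), the level in control skin was highest for Cd34 (50.9 ± 8.37, SD, n = 3). It was followed by Lrig1 (25.0 ± 2.04), Lhx2 (16.4 ± 1.49), Tbx1 (10.8 ± 3.15), Tcf7l1 (10.6 ± 0.881), Nfatc1 (5.73 ± 0.207), Sox9 (4.80 ± 2.06), Lgr6 (4.15 ± 0.549), Foxc1 (3.90 ± 1.51) and Lgr5 (2.70 ± 0.671). Control libraries overlapped between the neighbours Tbx1 and Tcf7l1, Nfatc1 and Sox9, Sox9 and Lgr6, and Lgr6 and Foxc1. The order within those pairs changed between libraries and was not resolved. Foxc1 and Lgr5 also overlapped, but Foxc1 was above Lgr5 within every control library. Cd34 and Lrig1 kept the 2 highest mean FPKM levels in the IMQ and LYS groups, whereas Lhx2 went from rank 3 of 10 in the control group to rank 9 in both treated groups. Nfatc1 went from rank 6 in the control group to rank 3 in both treated groups. These are ranks of means. The ranges of Lhx2 overlapped those of Lgr5, Lgr6 and Foxc1 in both treated groups. Within each treated library, Lhx2 was below Lgr6 and Foxc1, and it was below Lgr5 only in IMQ 3 (0.0538 against 0.104). In the LYS group the range of Nfatc1 overlapped those of Tcf7l1 and Sox9. Within a library, Nfatc1 was above Tcf7l1 in every LYS library and was below Sox9 only in LYS 1 (6.91 against 7.11).

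RefSeq promoters were read for the markers because most of them were lower together in the IMQ group. The table held windows of 300 bases, from 250 before to 50 after a gene's start, for 7 of the 10 markers, and these 7 have 9 starts. The 250 bases before the start are shown for Lhx2, the marker with the largest difference, for the R-spondin receptor Lgr6, and for Cd34, whose window differs from the others in composition. The sequences run 5′ to 3′ on the gene's strand of GRCm38.p6, with each CpG in capitals. They lie at chr2:38339031-38339280 (plus strand, Lhx2), chr1:135105277-135105526 (minus strand, Lgr6) and chr1:194938571-194938820 (plus strand, Cd34).
Lhx2: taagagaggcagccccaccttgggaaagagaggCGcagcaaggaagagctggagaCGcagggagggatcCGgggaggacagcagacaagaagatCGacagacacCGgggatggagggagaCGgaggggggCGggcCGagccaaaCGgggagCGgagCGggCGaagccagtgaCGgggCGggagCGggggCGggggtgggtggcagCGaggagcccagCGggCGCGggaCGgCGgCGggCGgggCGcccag
Lgr6: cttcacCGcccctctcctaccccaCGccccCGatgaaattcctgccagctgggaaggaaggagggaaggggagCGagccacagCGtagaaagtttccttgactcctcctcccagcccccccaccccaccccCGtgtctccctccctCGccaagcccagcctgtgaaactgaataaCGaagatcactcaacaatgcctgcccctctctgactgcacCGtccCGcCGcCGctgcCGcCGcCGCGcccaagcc
Cd34: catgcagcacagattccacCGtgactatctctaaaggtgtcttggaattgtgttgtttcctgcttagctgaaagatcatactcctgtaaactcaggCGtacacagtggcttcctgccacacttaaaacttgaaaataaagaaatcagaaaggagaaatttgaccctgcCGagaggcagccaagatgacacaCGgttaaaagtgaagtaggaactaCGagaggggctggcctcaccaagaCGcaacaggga
The Lhx2 stretch held 25 CpG, the Lgr6 stretch 16 and the Cd34 stretch 6. Over the whole windows, the markers had a median of 29 CpG against 7 over all 32851 RefSeq promoters, and 8 of 9 windows had at least 16 CpG against 33.0% of all promoters. The limit of 16 is the lowest count among the windows other than that of Cd34, which had 7. The 8 of 9 therefore follows from where the limit was set. The letters ACAATG or ACAAAG, a SOX motif, were found on either strand in 2 of 9 windows against 28.6% of all promoters. They were ACAATG starting 62 bases before the Lgr6 start on the gene's strand, within the stretch printed above, and ACAAAG on the opposite strand before the Tcf7l1 start. None of the 9 windows held ATCAAAG or TTCAAAG (TCF/LEF, 8.65% of all promoters), TAATTA (LIM homeodomain, 5.29%), TGGAAA (NFAT, 21.4%), GTAAACA (forkhead, 3.65%) or AGGTGTGA (T-box, 1.28%). A match describes letters in the window and is not a binding site.

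**Figure D1:**
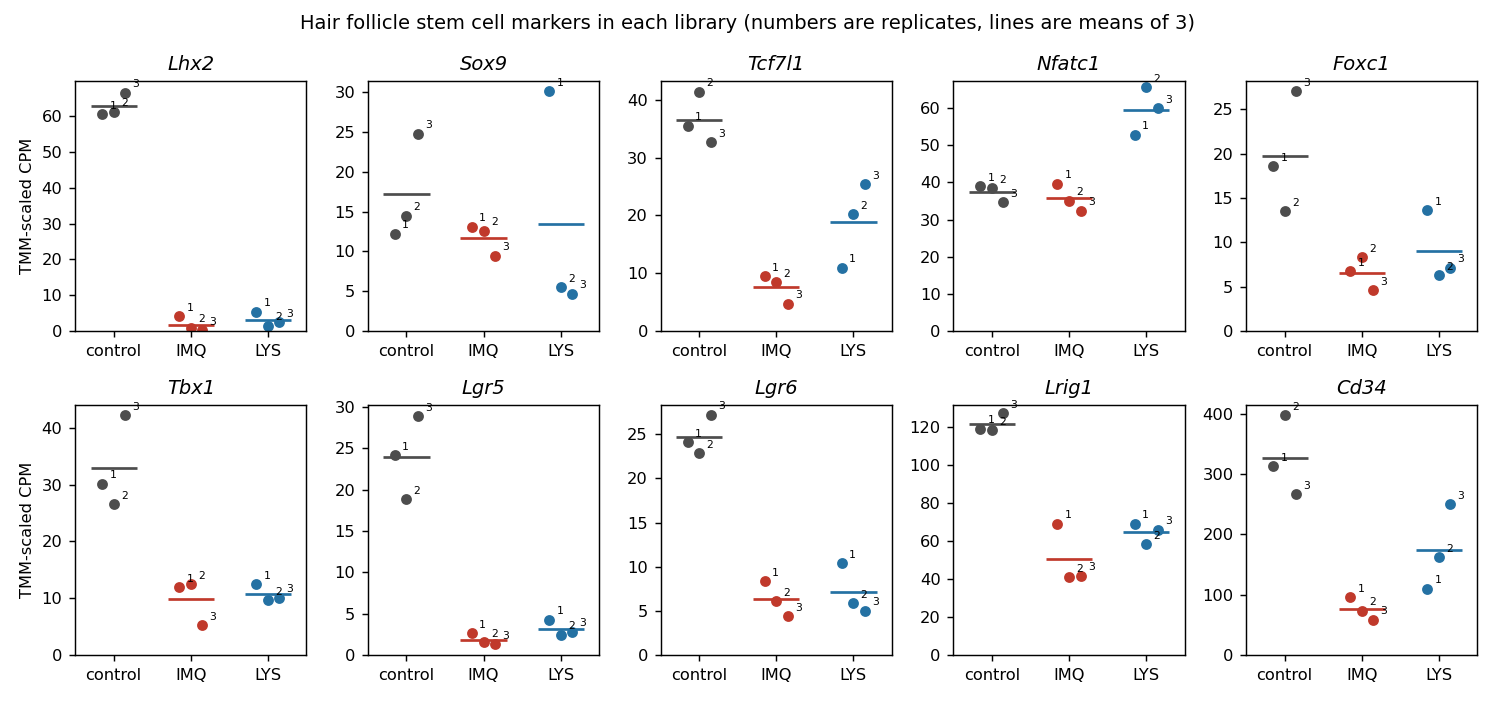
TMM-scaled CPM (linear axis from 0) of the 10 markers in each library, with points numbered by replicate and lines at the mean of 3. The 3 IMQ libraries lie below the 3 control libraries for 8 markers, and for Sox9 the LYS libraries lie at 30.1, 5.49 and 4.71.

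The first comparison asked how the markers differed between psoriasis-like and untreated skin. In the IMQ group, 8 of the 10 markers fell, and none rose, against 26.9% of genes called lower and 24.1% called higher. Lhx2 was 33.3-fold lower, a fold that was larger without IMQ 1, and Lgr5 12.9-fold lower, whereas Tcf7l1, Cd34, Lgr6, Tbx1, Foxc1 and Lrig1 were between 4.82-fold and 2.41-fold lower. Sox9 and Nfatc1 did not pass the test. Over the 15976 genes tested, the 3 IMQ libraries lay below the 3 control libraries for 36.0% of genes and for 8 of 10 markers. Genes were called with edgeR's quasi-likelihood test where the Benjamini-Hochberg adjusted p was under 0.05 and the log2 fold change was beyond 0.58 in either direction. The median log2 fold change was -1.86 over the markers and -0.06 over all genes. Scaling by library totals only moved these medians to -2.30 and -0.51. It also moved the calls over all genes from 3854 higher and 4291 lower to 2390 higher and 6854 lower, and 9 markers were then called lower, the same 8 and Sox9, against 42.9% of all genes. In bulk skin, fewer cells of a type and less RNA per cell cannot be told apart.

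Among the transcription factors, Lhx2 (chromosome 2, 38339281 to 38369733, plus strand), a LIM homeodomain factor of bulge and germ, was the most reduced. It was measured at 60.5, 61.1 and 66.4 CPM in control libraries 1 to 3, at 4.13, 0.969 and 0.293 CPM in IMQ libraries 1 to 3, and at 5.45, 1.53 and 2.53 CPM in LYS libraries 1 to 3. The IMQ values rest on 68, 13 and 4 counts, and the highest of them was 14.1 times the lowest. Both treated groups lay entirely below the control group and overlapped each other. The log2 fold change in IMQ against control was -5.06 (SE 0.60, edgeR adjusted p = 2.48e-04). Without IMQ 1 it was -6.62 (SE 0.30, adjusted p = 2.46e-06), and over all alternatives it ran from -6.62 to -4.56.

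Tcf7l1 (chromosome 6, 72626378 to 72789254, minus strand), a TCF/LEF family factor that represses Wnt targets in the bulge, was at 35.5, 41.4 and 32.7 CPM in the control libraries, at 9.55, 8.42 and 4.77 CPM in the IMQ libraries, and at 11.0, 20.2 and 25.4 CPM in the LYS libraries. The 3 groups did not overlap, with the LYS libraries between the other groups. It fell by 2.27 on the log2 scale in the IMQ group (SE 0.25, edgeR adjusted p = 1.62e-04).

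Tbx1 (chromosome 16, 18580979 to 18590671, minus strand), a T-box factor of bulge stem cells, was at 30.2, 26.5 and 42.2 CPM in the control libraries, at 11.9, 12.5 and 5.21 CPM in the IMQ libraries, and at 12.5, 9.67 and 10.1 CPM in the LYS libraries. The treated groups overlapped each other and lay below the control group. Tbx1 fell by 1.75 on the log2 scale in the IMQ group (SE 0.33, edgeR adjusted p = 0.00220). Foxc1 (chromosome 13, 31806633 to 31812476, plus strand), a forkhead factor that holds bulge cells quiescent, was at 18.6, 13.5 and 27.1 CPM in the control libraries, at 6.75, 8.35 and 4.62 CPM in the IMQ libraries, and at 13.6, 6.28 and 7.18 CPM in the LYS libraries. LYS 1 reached the lowest control library, whereas every IMQ library lay below the control group. Foxc1 fell by 1.59 on the log2 scale in the IMQ group (SE 0.31, edgeR adjusted p = 0.00258).

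Sox9 (chromosome 11, 112782224 to 112787760, plus strand), a SOX factor that bulge stem cells require, was at 12.2, 14.5 and 24.8 CPM in the control libraries, at 13.1, 12.6 and 9.46 CPM in the IMQ libraries, and at 30.1, 5.49 and 4.71 CPM in the LYS libraries. In CPM, LYS 1 was higher than every other library and LYS 2 and LYS 3 were lower than every other library. In FPKM, which uses no TMM factors, control 3 (7.16) was slightly above LYS 1 (7.11). The IMQ and control groups overlapped, with a log2 fold change of -0.56 (SE 0.28, edgeR adjusted p = 0.120). Scaling by library totals only gave -1.01 (adjusted p = 0.0213), past the thresholds.

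Nfatc1 (chromosome 18, 80606205 to 80713071, minus strand), a calcineurin-regulated factor of quiescent bulge cells that lymphocytes and endothelial cells also use, was at 39.0, 38.5 and 34.7 CPM in the control libraries, at 39.7, 35.1 and 32.4 CPM in the IMQ libraries, and at 52.9, 65.6 and 60.0 CPM in the LYS libraries. The control and IMQ groups overlapped, and all LYS libraries were higher than both. The log2 fold change in IMQ against control was -0.07 (SE 0.12, edgeR adjusted p = 0.630). The mean of the IMQ group was thus 95.5% of the control mean, with single libraries at 86.6% to 106%. Scaling by library totals only gave a log2 fold change of -0.51 (edgeR adjusted p = 0.0177), under the limit on the fold change. The median over all genes with that scaling was also -0.51. In FPKM, which uses no TMM factors, the IMQ libraries (3.50 to 4.86) lay below the control libraries (5.56 to 5.96).

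Among the receptors, Lgr5 (chromosome 10, 115450311 to 115587780, minus strand), the R-spondin receptor of lower bulge and germ, was at 24.2, 18.9 and 28.9 CPM in the control libraries, at 2.61, 1.57 and 1.32 CPM in the IMQ libraries, and at 4.26, 2.43 and 2.81 CPM in the LYS libraries. The treated groups overlapped each other and were far below the control group. In the IMQ group Lgr5 fell by 3.69 on the log2 scale (SE 0.29, edgeR adjusted p = 4.23e-05). Its paralogue Lgr6 (chromosome 1, 134983301 to 135105276, minus strand), a marker of the isthmus, was at 24.1, 22.9 and 27.2 CPM in the control libraries, at 8.33, 6.11 and 4.40 CPM in the IMQ libraries, and at 10.4, 5.88 and 4.99 CPM in the LYS libraries. The pattern of groups was that of Lgr5, with the treated libraries nearer the control group. In the IMQ group Lgr6 fell by 1.98 on the log2 scale (SE 0.23, edgeR adjusted p = 2.46e-04).

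Lrig1 (chromosome 6, 94604529 to 94700158, minus strand), a transmembrane inhibitor of EGF receptor signalling that marks the junctional zone of the upper follicle, was at 119, 118 and 127 CPM in the control libraries, at 69.1, 40.9 and 41.7 CPM in the IMQ libraries, and at 69.0, 58.4 and 66.0 CPM in the LYS libraries. IMQ 1 and LYS 1 had nearly equal levels, and both treated groups were below the control group. Lrig1 fell by 1.27 on the log2 scale in the IMQ group (SE 0.21, edgeR adjusted p = 0.00123). Cd34 (chromosome 1, 194938819 to 194961279, plus strand), a sialomucin of the bulge cell surface that dermal fibroblasts and vascular endothelium also carry, was at 313, 398 and 267 CPM in the control libraries, at 95.5, 73.3 and 58.7 CPM in the IMQ libraries, and at 110, 162 and 250 CPM in the LYS libraries. The 3 groups did not overlap and the LYS libraries lay between the others. In the IMQ group Cd34 fell by 2.11 on the log2 scale (SE 0.22, edgeR adjusted p = 1.42e-04).

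Exons on the opposite strand overlap 2.58% of the exon length of Lrig1 (Slc25a26), 2.03% of that of Cd34 (Gm16897) and 4.56% of that of Tcf7l1 (Gm15401), and the library kit named in the labels does not mark strand. The overlapping genes had at most 188 counts (Slc25a26), 36 counts (Gm16897) and 2 counts (Gm15401) in a library, against lowest counts of 548, 800 and 65 for the markers themselves. Lgr5 and Lgr6 have 17 and 20 exon blocks, and the length behind each FPKM was the summed exon length, 10264 and 6851 bases.

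**Figure D2:**
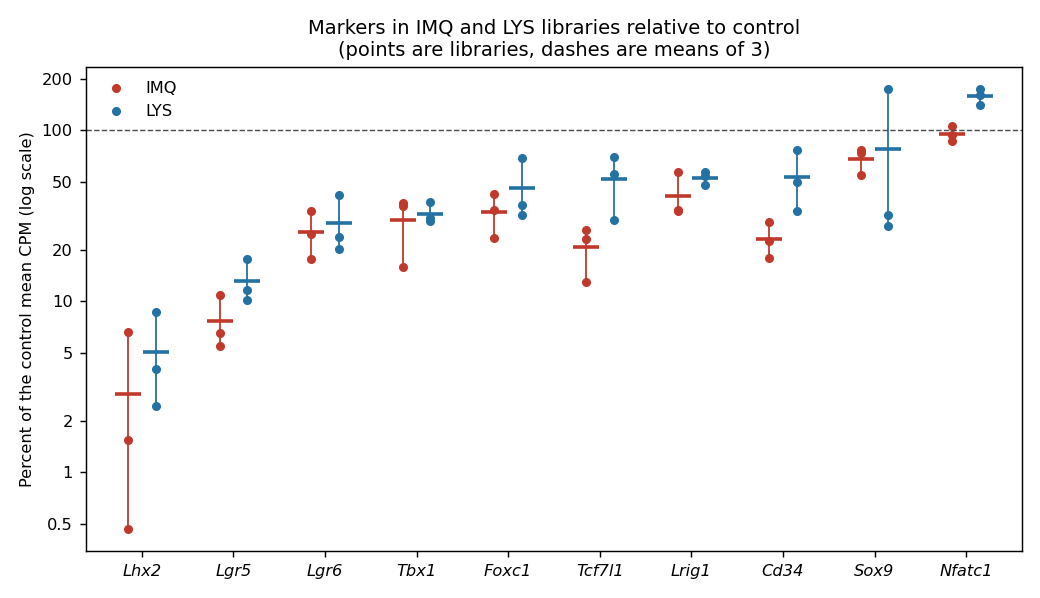
Level of each marker in the single IMQ and LYS libraries as a percent of the control mean CPM (log scale), with bars from the lowest to the highest library and dashes at the mean of 3. Mean levels run from 2.87% (Lhx2) to 95.5% (Nfatc1) in the IMQ group and from 5.05% (Lhx2) to 159% (Nfatc1) in the LYS group.

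The fall was uneven among the markers. As a percent of the control mean, the mean level in the IMQ group was 2.87% for Lhx2, 7.64% for Lgr5, 20.8% for Tcf7l1, 23.3% for Cd34, 25.4% for Lgr6, 29.9% for Tbx1, 33.3% for Foxc1, 41.6% for Lrig1, 68.3% for Sox9 and 95.5% for Nfatc1. The libraries of Lhx2 (0.468% to 6.60%) and Lgr5 (5.50% to 10.9%) overlapped, and all of them lay below those of the other 8 markers. The libraries of Tcf7l1, Cd34, Lgr6, Tbx1, Foxc1, Lrig1 and Sox9 overlapped between neighbours in this order. In IMQ 1 the median over the 10 markers was 34.0% of the control mean, in IMQ 2 29.2% and in IMQ 3 17.9%, and the control libraries had medians of 94.9% to 108%.

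The ratio of Lgr5 to Lgr6 within a library compares the receptors without any scaling between libraries. In reads per kilobase, with 0.5 read added, it was 0.670, 0.551 and 0.709 in the control libraries, 0.211, 0.174 and 0.204 in the IMQ libraries, and 0.275, 0.278 and 0.378 in the LYS libraries. The 3 groups did not overlap, with the IMQ group lowest. The log2 ratio differed by -1.71 between IMQ and control, by 0.65 between LYS and IMQ and by -1.06 between LYS and control. Each difference had p = 0.1 in an exact two-sided permutation test (adjusted p = 0.1 over the 3 pairs), the smallest p that 3 against 3 libraries can give, so the design could not pass a threshold of 0.05. These counts are low for Lgr5 in the treated groups, with 18 to 61 counts a library.

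**Figure D3:**
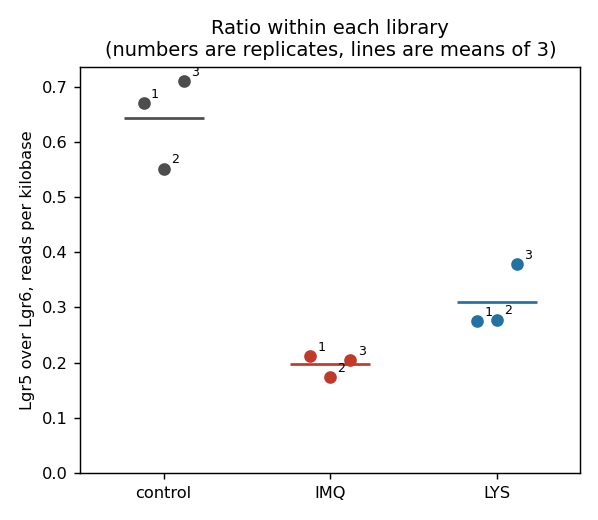
Ratio of Lgr5 to Lgr6 in reads per kilobase within each library (linear axis from 0), with points numbered by replicate and lines at the mean of 3. Control libraries lie between 0.551 and 0.709, IMQ libraries between 0.174 and 0.211, and LYS libraries between 0.275 and 0.378.

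The R-spondin and Wnt partners of these receptors were mixed. Of 14 listed genes, 7 fell in the IMQ group, none rose and 7 did not pass the test. Lgr4, the third R-spondin receptor of the family, fell from 78.6 ± 8.77 to 17.2 ± 3.69 CPM (SD, n = 3). Lef1, a Wnt-responsive factor of germ and matrix, fell from 21.5 ± 5.51 to 0.905 ± 0.701 CPM, and the ligands Rspo1, Rspo2 and Rspo3, the coreceptor Lrp6 and the factor Tcf7l2 also fell. Axin2, a general Wnt target, was at 25.4 ± 7.29 CPM in the control group and 32.0 ± 5.22 CPM in the IMQ group (edgeR adjusted p = 0.234). Ctnnb1, which encodes beta-catenin, was at 518 ± 41.2 and 520 ± 40.1 CPM (edgeR adjusted p = 0.976). In LYS against control, which shares its control libraries, 7 of the 14 genes were lower and none higher. Lrp6 (edgeR adjusted p = 0.195) was not among these 7 and Znrf3 (adjusted p = 0.00911) was, with Lgr4 at 26.5 ± 3.84 CPM and Lef1 at 1.23 ± 0.283 CPM.

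Other genes of the bulge and germ moved in both directions. Of 14, 10 fell and 2 rose in the IMQ group (median log2 fold change -1.12). Krt15, a keratin of the bulge and of basal cells, fell from 197 ± 36.5 to 115 ± 11.3 CPM, and Wif1, a secreted Wnt inhibitor, fell from 47.8 ± 8.88 to 3.02 ± 1.97 CPM. Hopx, a homeodomain protein also present in differentiating epidermis, rose from 43.2 ± 15.2 to 213 ± 44.4 CPM, and Gas1, a surface protein of the hedgehog pathway, rose from 49.0 ± 3.80 to 140 ± 6.42 CPM. Of the 5 other isthmus and infundibulum genes, Cst6, Prdm1 and Plet1 rose, whereas Krt79 and Gata6 fell. These directions for single genes were read after their values had been seen.

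Most genes of the growing follicle, which are made by the matrix and hair shaft, fell. Of 23 genes tested, 20 fell, Foxn1 rose, and Dlx3 and Krt83 did not pass the test. Their summed CPM was 2850 to 6049 in the control libraries, 129 to 199 in the IMQ libraries and 60.1 to 118 in the LYS libraries. Krt71, an inner root sheath keratin, was at 1240 ± 489 CPM in the control group and 0.145 ± 0.200 CPM in the IMQ group, and the hair keratins Krt31, Krt33a, Krt33b, Krt34 and Krt35 and the root sheath keratin Krt72 had no count in any IMQ library. Of 14 dermal papilla genes, 12 fell and Crabp1 rose (median log2 fold change -2.18), with Corin at 20.0 ± 2.58 CPM in the control group and 0.496 ± 0.184 CPM in the IMQ group. Of 7 basal epidermis genes, 6 rose and none fell, with Krt14 at 897 ± 218 CPM in the control group and 7587 ± 828 CPM in the IMQ group, and 3 were called higher with scaling by library totals only. All 6 proliferation genes tested and all 8 sebaceous gland genes fell, as did 5 of 5 skeletal muscle, 4 of 4 adipocyte and 2 of 4 Schwann cell genes. Over all genes tested, 26.9% were called lower and 24.1% higher. Endothelium and fibroblasts also carry Cd34. Of their listed genes, 9 of 12 endothelial (median log2 fold change -1.02) and 8 of 10 fibroblast (median -1.71) genes fell and none rose. Of 7 leukocyte genes, Lyz2 fell and Cd3e and Cd3g rose. The part of these shifts in the values of the stem cell markers was not tested.

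**Figure D4:**
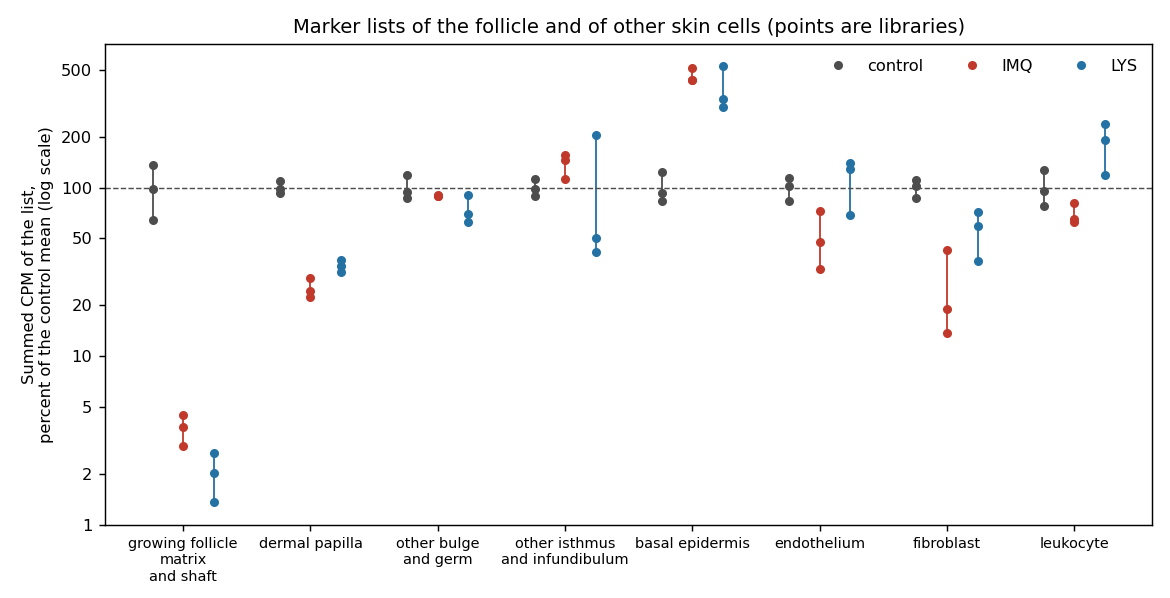
Summed CPM of 8 marker lists in each library as a percent of the control mean (log scale), with lines from the lowest to the highest library of a group. Growing follicle genes lie between 2.93% and 4.50% in the IMQ libraries and between 1.36% and 2.67% in the LYS libraries, and endothelial genes reach 128% and 141% in LYS 2 and LYS 3.

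The second comparison asked whether LYS changed the markers in IMQ-treated skin. None of the 10 markers passed edgeR's test, and 0.00% of the 15460 genes tested did (0 genes, with 5435 at an unadjusted p under 0.05 and a smallest adjusted p of 0.0591). DESeq2 called 3313 genes. The log2 fold change was above 0 for all 10 markers and for 52.9% of all genes, with medians of 0.66 and 0.04. Without LYS 1 it was below 0 for Lgr6 (-0.14) and Sox9 (-1.13), and without IMQ 3 for Tbx1 (-0.11). The medians over the markers and over all genes were then 0.29 and 0.02 without LYS 1, and 0.33 and 0.04 without IMQ 3. The LYS libraries lay above the IMQ libraries for 3 markers, Cd34, Nfatc1 and Tcf7l1, and for 16.8% of all genes. This comparison shares the IMQ libraries with the first and the LYS libraries with the third.

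Cd34 had a log2 fold change of 1.27 (SE 0.33, edgeR adjusted p = 0.0644), Nfatc1 of 0.80 (SE 0.14, adjusted p = 0.0591) and Tcf7l1 of 1.39 (SE 0.39, adjusted p = 0.0667). These 3 were called higher with DESeq2 (adjusted p = 0.00460, 5.46e-04 and 0.00719), against 12.3% of genes called higher and 8.75% called lower. They were also called higher with no expression filter (5.30% of genes) and with all 9 libraries in 1 edgeR fit (9.93% of genes). Without LYS 1 they were called higher (log2 fold changes of 1.52, 0.89 and 1.67), against 14.9% of genes, and Sox9 was called lower (-1.13, SE 0.24, adjusted p = 0.0179), against 11.9% of genes. Without IMQ 1, Nfatc1 and Lrig1 were called higher, against 6.80% of genes.

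The other 7 markers overlapped between the IMQ and LYS groups. Lgr5 had a log2 fold change of 0.83 (SE 0.38, edgeR adjusted p = 0.161) and Lhx2 of 0.83 (SE 0.87, adjusted p = 0.519). Lhx2 was at 2.36 without IMQ 1 (SE 0.76, adjusted p = 0.0796) and at 0.21 without LYS 1 (SE 0.92, adjusted p = 0.876). Foxc1 was at 0.51 (SE 0.36), Lrig1 at 0.41 (SE 0.22), Sox9 at 0.23 (SE 0.68), Lgr6 at 0.23 (SE 0.36) and Tbx1 at 0.19 (SE 0.33), with edgeR adjusted p of 0.228 to 0.825. The errors of Lhx2 and Sox9 were the widest, and the libraries ran from 4 to 68 counts of Lhx2 in the IMQ group and from 82 to 431 counts of Sox9 in the LYS group. Without LYS 1, Lgr5 was at 0.58, Lrig1 at 0.37, Foxc1 at 0.11 and Tbx1 at 0.08, none of them called.

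Markers of cell types that also carry Cd34 or Nfatc1 were tallied beside these. All 12 endothelial genes had a log2 fold change above 0 in LYS against IMQ (median 1.16), with 0 called by edgeR, 10 called higher by edgeR without LYS 1 and 9 called higher by DESeq2, and no listed gene was at 0 in a group. Their summed CPM was 658 to 903 in the control libraries, 257 to 570 in the IMQ libraries and 538 to 1106 in the LYS libraries. All 10 fibroblast genes were above 0 (median 1.30, 0 called by edgeR, 6 without LYS 1 and 7 by DESeq2), with a summed CPM of 22560 to 28690 in control, 3549 to 10940 in IMQ and 9503 to 18520 in LYS libraries. All 7 leukocyte genes were above 0 (median 1.17, 0 called by edgeR, 4 without LYS 1 and 5 by DESeq2), with a summed CPM of 976 to 1602 in control, 789 to 1015 in IMQ and 1485 to 3003 in LYS libraries. Pecam1, an endothelial adhesion molecule, was at 168 ± 29.8, 83.6 ± 26.3 and 196 ± 63.6 CPM in control, IMQ and LYS, and Ptprc, the common leukocyte antigen, was at 63.1 ± 15.7, 78.1 ± 1.87 and 172 ± 40.8 CPM. Within the LYS group, Cd34, Tcf7l1 and the endothelial, fibroblast and leukocyte sums were all lowest in LYS 1 and highest in LYS 3, and so were the skeletal muscle, Schwann cell, adipocyte and dermal papilla sums. Every tested gene of the adipocyte (4, median 1.55), sebaceous gland (7, median 1.09), skeletal muscle (4, median 0.82), Schwann cell (4, median 0.80) and proliferation (6, median 0.22) lists also had a log2 fold change above 0, with 0 called by edgeR. Without LYS 1 the medians of these lists, in the same order, were 1.88, 0.24, 1.01, 1.04 and -0.07. The part of these cell types in the values of Cd34, Nfatc1 and Tcf7l1 was not tested.

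**Figure D5:**
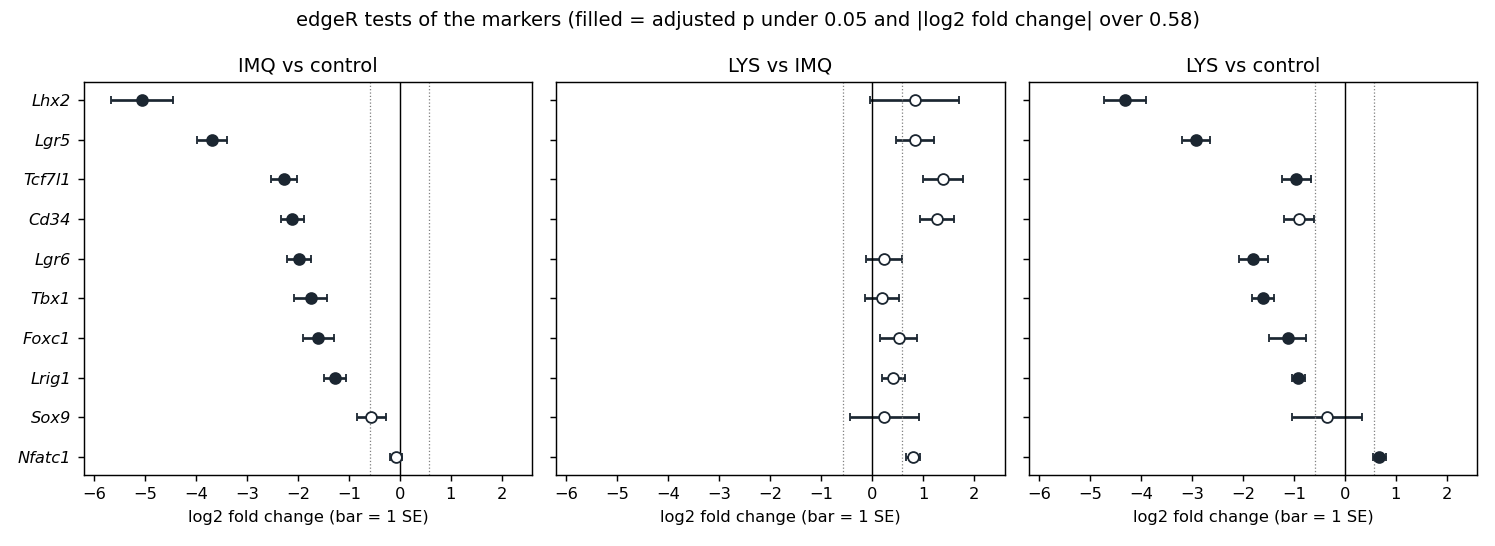
Log2 fold changes of the 10 markers in the 3 comparisons, with bars of 1 SE and filled points where a marker passed edgeR's thresholds (dotted lines at 0.58 either way). Filled points number 8 in IMQ against control, 0 in LYS against IMQ and 8 in LYS against control, where Nfatc1 is the one to the right of 0.

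The third comparison set the LYS group against untreated skin. Of the 10 markers, 7 were lower, against 12.9% of the 16003 genes tested, and Nfatc1 was higher, against 15.1%. Lhx2 fell by 4.32 on the log2 scale (SE 0.41, edgeR adjusted p = 6.50e-04), or by 4.94 without LYS 1 (SE 0.23, adjusted p = 6.69e-05), and Lgr5 fell by 2.92 (SE 0.28, adjusted p = 6.39e-04). Lgr6 fell by 1.80 (SE 0.28, adjusted p = 0.00404) and Tbx1 fell by 1.61 (SE 0.22, adjusted p = 0.00231). Lrig1 fell by 0.91 (SE 0.12, edgeR adjusted p = 0.00235). The LYS libraries lay below the control libraries for 7 markers, Cd34 included and Foxc1 not, and for 25.3% of all genes. The median log2 fold change was -1.04 over the markers and -0.01 over all genes, and with scaling by library totals only -1.18 and -0.15. That scaling also moved the calls over all genes from 2412 higher and 2064 lower to 1917 higher and 2706 lower.

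Foxc1 and Tcf7l1 were close to the threshold. Foxc1 fell by 1.12 on the log2 scale (SE 0.37, edgeR adjusted p = 0.04999), and the call was lost without control 1, control 3, LYS 2 or LYS 3 (adjusted p = 0.101 to 0.153). Tcf7l1 fell by 0.95 (SE 0.28, adjusted p = 0.0366), and the call was lost without any 1 of the control libraries or without LYS 2 (adjusted p = 0.0671 to 0.132). Cd34 had a log2 fold change of -0.90 (SE 0.30, adjusted p = 0.0526), and it was called lower with DESeq2, with all 9 libraries in 1 fit, with no expression filter, with scaling by library totals only and without LYS 3 (adjusted p = 0.00911 to 0.0480).

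Nfatc1 rose by 0.67 on the log2 scale (SE 0.13, edgeR adjusted p = 0.00783), to 159% of the control mean, with LYS libraries at 141% to 175%. It stayed above 0 under every alternative run. With scaling by library totals only it was 0.54 (adjusted p = 0.0250), under the limit on the fold change. Of the 7 leukocyte genes, 4 rose in this comparison and none fell, and of the 12 endothelial genes Vwf rose and none fell. Over all genes tested, 15.1% were called higher and 12.9% lower. Sox9 had a log2 fold change of -0.35 (SE 0.69, edgeR adjusted p = 0.728), and without LYS 1 it was called lower (-1.74, SE 0.33, adjusted p = 0.00736). It was just above 0 without control 3, LYS 2 or LYS 3.

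In the LYS group the mean levels as a percent of control were 5.05% for Lhx2, 13.2% for Lgr5, 28.7% for Lgr6, 32.6% for Tbx1, 45.8% for Foxc1, 51.7% for Tcf7l1, 53.0% for Lrig1, 53.4% for Cd34, 78.3% for Sox9 and 159% for Nfatc1. Lhx2 and Lgr5 remained the 2 lowest in every LYS library, and 6, 8 and 6 of the 10 markers were under 50% of the control mean in LYS 1, LYS 2 and LYS 3. Of the growing follicle genes, 22 of 23 were called lower than in control skin. Of the 14 dermal papilla genes, 11 were lower and Crabp1 was higher, and of the 14 other bulge and germ genes 7 were lower and Hopx, Gas1 and Runx1 were higher.

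The markers also differed in which genes they resembled. Likeness was the root mean square difference between gene-centred log2(CPM + 1) profiles over the 9 libraries, among 16392 genes, and it describes levels in 9 libraries that share their groups. Cd34 and Tcf7l1 were each other's nearest marker (0.137), with Cgnl1, Ccdc8 and Dbn1 nearest to Cd34 and Cpq, Pard3b and Rhoj nearest to Tcf7l1. Lgr6 and Tbx1 were each other's nearest marker (0.266), with Mex3a, Spock1 and Cntfr nearest to Lgr6 and Naaladl2, Grik3 and Adgrl3 nearest to Tbx1. Gm973, Casq2 and Wif1 were nearest to Lgr5 (0.184 to 0.283), and Lrrc15, Scube3 and Alx4 were nearest to Lhx2 (0.404 to 0.493). Tesc, Fgd1 and Tln2 were nearest to Lrig1, Ulk4, Sptssb and Gsdma3 to Foxc1, and Fam167a, Padi4 and Stra6 to Sox9. Sh2b3, Sipa1 and Zscan30 were nearest to Nfatc1 (0.0912 to 0.102), and its nearest marker, Lrig1, was at 0.701, at rank 12667 among all genes.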

How the data were processed

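Total RNA of 9 back skin libraries (3 groups of 3) was sequenced. The authors deposited whole-number read counts and FPKM for 29205 genes, and the submitters' processing notes name HISAT2, HTSeq 0.13.5 and GRCm38. The deposited FPKM equalled counts divided by exon length (that of GENCODE M21 for 98.5% of 29128 genes found there) and by the summed counts, scaled as usual. Counts were tested with edgeR 4.0.16 (TMM, filterByExpr, quasi-likelihood, R 4.3.3), each fit holding the 6 libraries compared. The SE is the absolute log2 fold change divided by the root of the F statistic. CPM used TMM factors over 9 libraries. The scripts were tested on simulated data. Alternatives were DESeq2 1.42.0, other scalings, filters, thresholds, a single fit, a replicate block and leaving out each library. Named genes are the 10 members, the most abundant genes of fixed lists with defining markers, and the 3 nearest profiles. Members and lists were chosen with earlier results of these data known. Figures used matplotlib 3.10.9. Promoters were RefSeq GRCm38.p6, and no window for Lgr5, Sox9 or Nfatc1 was used.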

Additional observations from a re-analysis of the deposited data

How the results depend on the processing

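In IMQ against control, the 8 markers called lower kept their direction and their call under every alternative run (DESeq2, other scalings, filters and thresholds, 9 libraries in 1 fit, a replicate block and each library left out). The log2 fold change of Lhx2 was -6.62 without IMQ 1 against -5.06 with it. Nfatc1, which was not called, had a log2 fold change of 0.0098 without IMQ 3. In LYS against IMQ, the count of markers called moved from 0 to 3 with DESeq2, with no expression filter and with all 9 libraries in 1 fit, and ran from 0 to 4 when a library was left out. Genes called moved from 0 to 3313, 2419 and 3040 in those settings and ran from 0 to 4262 with a library left out (1873 without IMQ 1, 4262 without LYS 1, and 0 without any 1 of the others). The log2 fold change was below 0 for Lgr6 without LYS 1 (-0.14, up to 0.49 with another library left out), for Sox9 without LYS 1 (-1.13, up to 0.63) and with the replicate block (-0.27), and for Tbx1 without IMQ 3 (-0.11, up to 0.38). In LYS against control, an absolute log2 fold change over 1 left 5 markers and 2910 genes of 8 and 4476, and leaving out a library gave 6 to 9 markers and 2579 to 5072 genes (2579 without control 1). Sox9 ran from -1.74 without LYS 1 to 0.062 without LYS 3 and was also above 0 without control 3 (0.013) or LYS 2 (0.035). The cause of these shifts was not tested.

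Libraries with the same number did not deviate together (correlations of -0.46 to 0.20 over the 3 comparisons), so the numbers were not treated as pairs. With the replicate block, 8, 0 and 6 markers and 8044, 0 and 3126 genes were called in IMQ against control, LYS against IMQ and LYS against control, and Foxc1 (adjusted p = 0.0560) and Tcf7l1 (adjusted p = 0.0515) were the markers lost. The Lgr5 to Lgr6 differences with the block were -1.71, 0.65 and -1.06, each with p = 0.25, the smallest an exact sign-flip permutation of 3 pairs can give. Lhx2 and Lgr5 rest on few counts in treated skin, which limits their fold changes.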
